A study of Mus musculus with 12 samples.

Results

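The comparison was of jejunal transcripts in POR-null mice fed a quercetin diet or a control diet. POR-null mice lack NADPH-cytochrome P450 reductase (gene symbol Por). It took the 3 arrays of POR-null mice on quercetin and the 3 arrays of POR-null mice on the control diet, 6 of the 12 arrays in all, chosen by their titles. Every probe set other than the array's control probe sets was kept, which left 22626 of 22690. Values are log2 intensities as deposited, and a difference is always quercetin diet minus control diet on that scale.

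All mice were males of 6 to 8 weeks, either POR-null or wild-type C57BL/6. Both diet groups first spent 14 days on the soya-free powdered RM3 diet, so that diet is common to every array. The quercetin groups then ate RM3 with 6.2 g of quercetin per kg, a dose given as 7 mg per mouse, and were killed after 24 h. The control groups stayed on RM3. Jejunum was the middle of 3 equal lengths of the small intestine, and its epithelium was scraped off for RNA. Each array held the RNA of 3 mice in 1 pool, so the spread between single animals was not measured. Mice were housed 3 per cage, and whether a pool was a cage is not stated. The labels also do not say in which tissues Por was deleted, or how.

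Por passes electrons from NADPH to the microsomal cytochromes P450, enzymes that oxidise drugs, steroids and fatty acids. The sterol synthesis enzymes Cyp51 and squalene epoxidase draw on it too. Quercetin is a flavonol of onions and apples. Absorptive cells of the small intestine join it to glucuronic acid, sulphate or methyl groups and export the conjugates through ATP-driven pumps. Flavonols are also known as ligands of the aryl hydrocarbon receptor and as agents that act on the NRF2 antioxidant pathway.

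Medians of the 6 POR-null arrays ran from 5.96 to 6.01, and arrays correlated at 0.993 to 0.995 within the diet groups and at 0.993 to 0.995 between them. Enterocyte markers were bright: the 8 measured of 10 lay between 12.12 (Slc5a1, the sodium-glucose carrier) and 13.87 (Apoa1, an apolipoprotein). Goblet cell markers ran from 7.07 to 13.01, and none of 3 red blood cell markers was above the array median. Por itself is not analysed here, which leaves the genotype labels unchecked. Control pool 3 stood apart from the other POR-null pools for sterol synthesis genes, as described with those genes below, and quercetin pool 1 for MHC class II genes. Where leaving out a pool shrank a difference described below by over 1.5 times, the main cases are given without that pool.

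No probe set passed the test for the diet in POR-null jejunum. At an adjusted p under 0.05 (limma, Benjamini-Hochberg over 22626 probe sets) 0 were called, or 0%, and 910 had an unadjusted p under 0.05, or 4.02% (461 higher on quercetin, or 2.04%, and 449 lower, or 1.98%). Pools did not overlap between the diets for 2049 probe sets (9.06%), with 983 higher (4.34%) and 1066 lower (4.71%). With 1 probe set for each of 12393 genes, 508 genes had an unadjusted p under 0.05 (4.1%; 2.01% higher and 2.09% lower). The pools of 1118 genes did not overlap (9.02%), with 520 higher (4.2%) and 598 lower (4.83%). The median difference over these genes was 0 with an SD of 0.114, and pools of 1 group had a median SD of 0.104. Differences over 1.5-fold were found in 17 genes, 10 higher and 7 lower, and in 5 of them the pools did not overlap: Hmgcs1, Krt12 and Gm9222 were higher, and G6pc and 2210407C18Rik were lower. Only Defa31 and Fabp6 differed over 2-fold, and their pools overlapped. So the members below are described by their values. Adjusted p was 0.995 for each named gene unless another value is given.

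**Figure D1:**
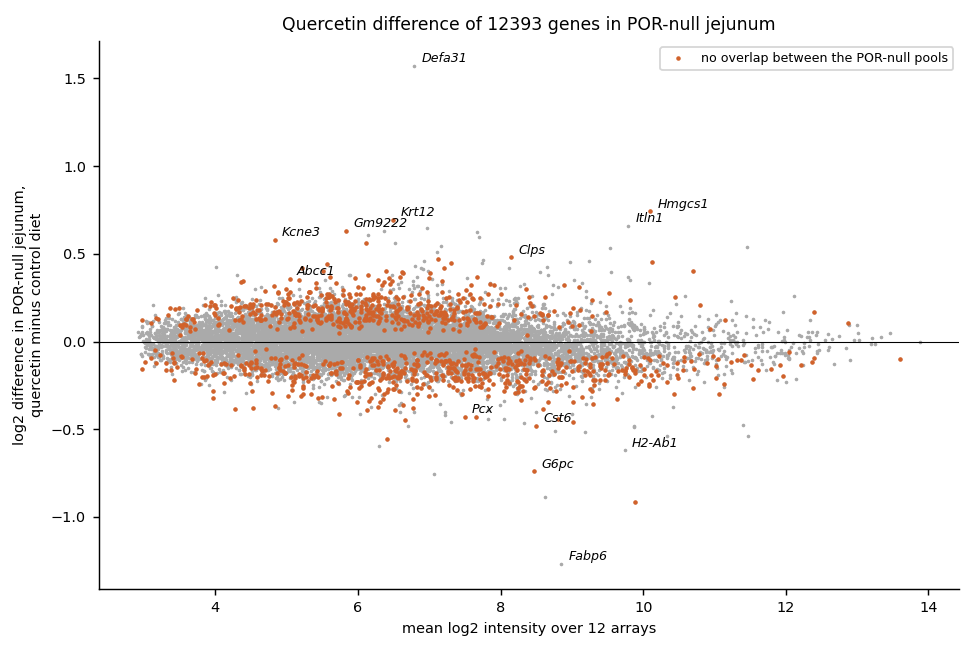
Each point is 1 of 12393 genes, with its mean log2 intensity over the 12 arrays on the x axis and its log2 difference (quercetin minus control diet) in POR-null jejunum on the y axis. Orange points are the 1118 genes whose POR-null pools did not overlap. Most genes lie in a narrow band around 0, and Defa31 (1.57) and Fabp6 (-1.27), whose pools overlapped, lie farthest out.

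The probe set with the smallest adjusted p was 1 of 2 for Sectm1b, a gene of a secreted and membrane-bound immune protein, named after its values were seen. Its level was 9.31, 9.30 and 9.42 in the control pools and 8.86, 8.95 and 8.91 in the quercetin pools. Every quercetin pool was below every control pool. The difference was -0.44 ± 0.07 (SE, 95% interval -0.59 to -0.28), at an adjusted p of 0.5 in limma. The other probe set of Sectm1b, brighter at 11.21, 11.11 and 11.37 against 10.93, 10.99 and 10.87, differed by -0.30 ± 0.11, also with no overlap. In wild-type mice the first differed by -0.16 and the other by 0.00.

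Glucose-handling genes held the named gene with the largest non-overlapping difference below 0. G6pc encodes the catalytic subunit of glucose-6-phosphatase, which releases free glucose at the end of gluconeogenesis. It was at 8.68, 8.78 and 8.73 in the control pools and at 8.06, 8.04 and 7.87 in the quercetin pools. The control pools lay close together, and all quercetin pools were clearly under them. The difference was -0.74 ± 0.16 (SE), 1.67-fold lower, with a 95% interval of -1.08 to -0.40. In wild-type mice G6pc differed by -0.10 with overlapping pools. Its SD between wild-type pools was 0.35 on control diet and 0.30 on quercetin, against 0.05 and 0.10 in POR-null mice. The adjusted p of G6pc was 0.995 in the limma fit of all arrays, which is the test used here. In an alternative limma fit of the 6 POR-null arrays alone it was 0.0646, the smallest in that fit, still above the threshold. Pcx encodes pyruvate carboxylase, which makes oxaloacetate from pyruvate at the start of the same pathway. It was at 7.70, 7.53 and 7.96 on control diet and 7.15, 7.35 and 7.40 on quercetin, a difference of -0.43 ± 0.11 (95% interval -0.67 to -0.19). Its diets did not overlap either, and in wild-type mice it differed by -0.28, again with every quercetin pool below every control pool.

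The other members of the fructose and gluconeogenesis list lay closer to 0. Tkfc, the triokinase of fructose breakdown, differed by -0.20 with overlapping pools. Of the genes looked at in the list, Fbp1 (fructose bisphosphatase) differed by -0.10, Khk (ketohexokinase) by -0.06 and Pck1 (the cytosolic PEP carboxykinase) by 0.13. Of 11 measured genes 8 were below 0 and 3 above. Pools did not overlap in 3 of the 11 (27.3%, against 9.0% of all genes), all lower on quercetin: G6pc, Pcx and Ldha, the last by -0.06. The list's median was -0.06 against 0 for all genes, and leaving out 1 POR-null pool at a time moved it between -0.09 and 0.03. It was -0.23 in wild-type jejunum. No member passed the test.

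Promoter windows of G6pc and Pcx are shown because these were the gluconeogenic genes with the clearest separation between diets, and that of Hmgcs1 because it led the sterol genes described below. Each is the 250 bases before the annotated start (RefSeq, GRCm38.p6), all on the plus strand: chr11:101367466-101367715 for G6pc, chr19:4510222-4510471 for Pcx (the first of 2 windows of that gene) and chr13:119690101-119690350 for Hmgcs1. Capitals mark the 1 match in each to TTANGTAA (the D-box of clock output factors), CACGTG (the E-box) and TCACNCCAC (the sterol element), searched on both strands.
G6pc: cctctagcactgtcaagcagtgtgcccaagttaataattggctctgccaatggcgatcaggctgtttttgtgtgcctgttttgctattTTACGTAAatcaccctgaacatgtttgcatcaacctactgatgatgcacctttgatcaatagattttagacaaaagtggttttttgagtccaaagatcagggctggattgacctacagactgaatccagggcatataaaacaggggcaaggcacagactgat
Pcx: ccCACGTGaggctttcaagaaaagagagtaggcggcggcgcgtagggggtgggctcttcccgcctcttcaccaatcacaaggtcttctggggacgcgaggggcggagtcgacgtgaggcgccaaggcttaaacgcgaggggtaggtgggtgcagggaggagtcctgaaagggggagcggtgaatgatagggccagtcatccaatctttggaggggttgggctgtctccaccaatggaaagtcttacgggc
Hmgcs1: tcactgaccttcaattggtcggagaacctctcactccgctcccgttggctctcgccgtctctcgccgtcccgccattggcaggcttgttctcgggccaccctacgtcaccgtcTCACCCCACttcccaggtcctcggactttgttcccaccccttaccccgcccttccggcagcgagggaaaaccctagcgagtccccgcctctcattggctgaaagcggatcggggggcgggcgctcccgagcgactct
The matches began 162 bases upstream in G6pc, 248 in Pcx and 137 in Hmgcs1. A window was found for 79 of the 101 named genes. Shares of genes with a match were compared with those of the 9887 measured genes that had a window. TTANGTAA was in 2 of the 79 named genes (2.5%; G6pc and Zscan26) and 1.85% of measured genes, CACGTG in 5 (6.3%) and 9.19%, and TCACNCCAC in 5 (6.3%) and 1.29%. Those last 5 were Ehhadh, Fabp6, Hmgcs1, Leng8 and Mlxipl. Fabp6 was a gene always looked up, Ehhadh and Mlxipl came from gene lists, and Hmgcs1 was also on the sterol list. The named genes include picks from lists such as sterol synthesis and NRF2. So these shares are not those of genes picked by their diet difference alone. GCGTG, the core of the xenobiotic element, was in 29 (36.7%) and 44.66%, and TGACNNNGC, an antioxidant element, in 17 (21.5%) and 13.48%. Over all 32851 windows, which count a gene more than once, the 5 shares were 2.06%, 6.02%, 1.05%, 28.16% and 10.16% in this order. A 13-letter bile acid receptor element was in 0 of the 79. A match is a description of letters and shows no binding.

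Other genes with small p on the lower side were of mixed function. Cst6, an inhibitor of cysteine proteases, was at 8.65, 8.90 and 9.12 on control diet and 8.48, 8.41 and 8.34 on quercetin, a difference of -0.48 ± 0.11. Oit1, a secreted protein of the gut, was at 9.07, 8.83 and 8.80 against 8.51, 8.51 and 8.36, a difference of -0.44 ± 0.11. Oit1 was also lower in every wild-type quercetin pool, by -0.54. Rgs2, which shortens G protein signals, was at 6.54, 6.80 and 6.64 against 6.23, 6.22 and 6.36 (-0.39 ± 0.09). A dimmer second probe set of Rgs2 differed by 0.01, so the gene's probe sets disagreed. Tlcd2 differed by -0.46 ± 0.13, Mageb3 (a MAGE family gene of the germ line) by -0.38 ± 0.08, Atg9b (a membrane protein of autophagy) by -0.37, Snx16 (a sorting nexin) by -0.33 and Dcaf12 (an adaptor of a ubiquitin ligase) by -0.27. The pools of these 5 did not overlap. Gpr155 differed by -0.56 but with an SE of 0.29, since its quercetin pools were spread from 5.71 to 6.41. The unnamed model 2210407C18Rik was at 10.54, 10.29 and 10.25 against 9.55, 9.69 and 9.09, a difference of -0.92 ± 0.29, the largest without overlap.

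**Figure D2:**
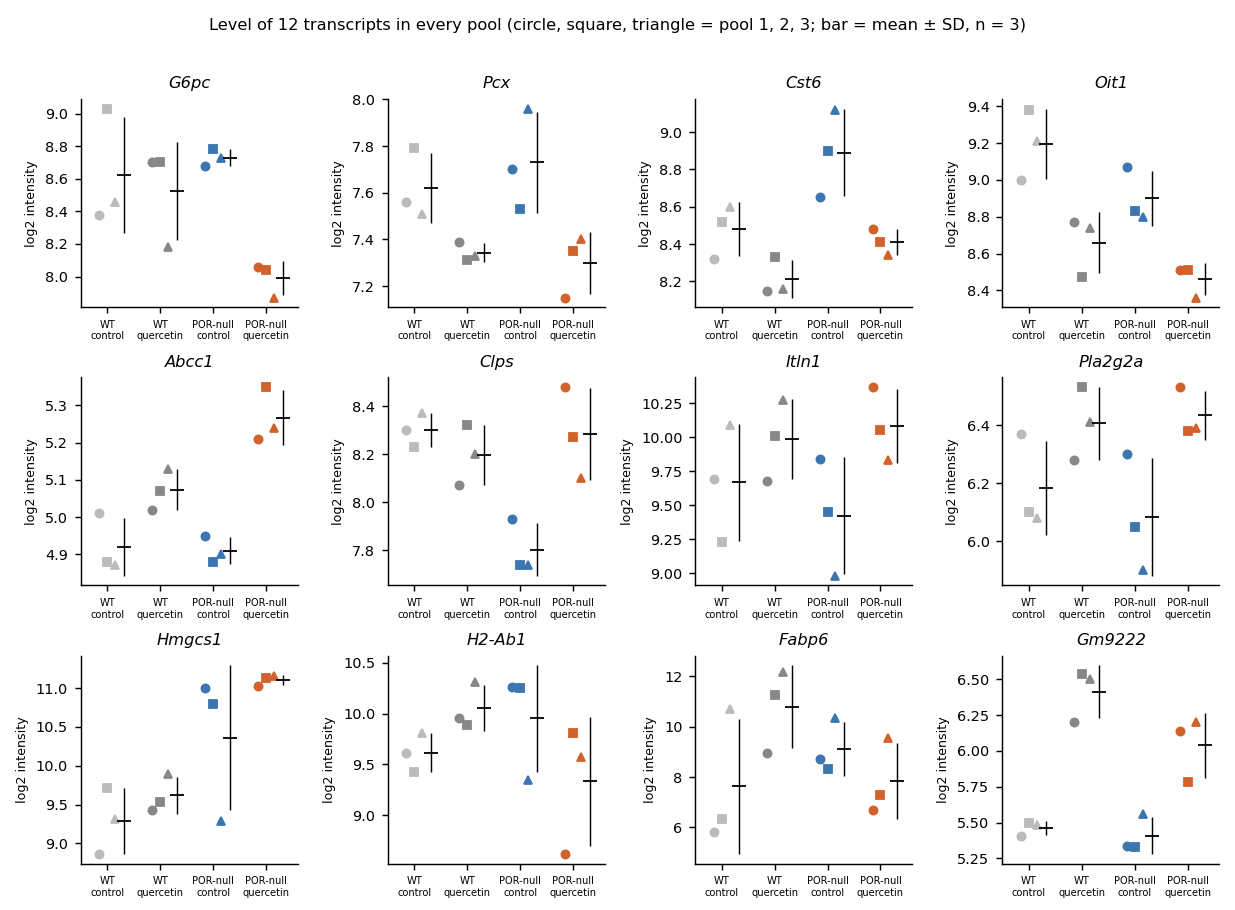
Log2 intensity of 12 transcripts in every pool, with wild-type (WT) pools in greys, POR-null control pools in blue and POR-null quercetin pools in orange; circle, square and triangle are pools 1, 2 and 3, and bars are the mean ± SD of 3 pools. The G6pc and Abcc1 pools of POR-null mice separate by diet with little spread, while for Hmgcs1 control pool 3 (9.29) lies far below the other 5.

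Among genes higher on quercetin, the smallest p after that of the unnamed model Gm9222 belonged to Abcc1, a pump that exports conjugates of glutathione, glucuronic acid and sulphate. It was dim, at 4.95, 4.88 and 4.90 on control diet and 5.21, 5.35 and 5.24 on quercetin. These pools did not overlap, and the difference was 0.36 ± 0.08 (95% interval 0.19 to 0.52). A second probe set, of a type that can bind several transcripts, differed by 0.04 with overlap. Clps, the colipase that anchors pancreatic lipase to fat droplets, was at 7.93, 7.74 and 7.74 against 8.48, 8.27 and 8.10, a difference of 0.48 ± 0.10. Its second probe set differed by 0.57 with overlap (0.33 without control pool 3). In wild-type pools Clps differed by -0.10.

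Krt12, a keratin best known from the cornea, was at 6.72, 6.94 and 5.76 against 7.31, 7.18 and 7.01. The difference of 0.69 ± 0.26 was 0.34 without control pool 3. A second Krt12 probe set, of a type that can bind several transcripts, differed by 0.49 with overlap (0.18 without control pool 3). Kcne3, a subunit of potassium channels in secretory epithelium, was at 4.76, 4.49 and 4.28 against 4.80, 5.43 and 5.04, a difference of 0.58 ± 0.17. Slfn4, a Schlafen gene known from myeloid cells, differed by 0.56 ± 0.19. On the probe set used for each gene none of these overlapped, although the Kcne3 groups nearly touched. Sytl2 (a vesicle tethering protein, 0.31) and Otoa (0.28) had close quercetin pools, those of Sytl2 at 7.04, 7.00 and 7.02. The control pools of Sytl2 were more spread, at 6.84, 6.58 and 6.72.

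The other genes with the smallest p on the higher side were of mixed function. Ddx17, an RNA helicase of splicing, was at 8.56, 8.86 and 8.73 on control diet and 9.00, 9.02 and 9.10 on quercetin, a difference of 0.32 ± 0.09. A second Ddx17 probe set differed by 0.37 and a dimmer one by 0.04. Leng8 differed by 0.39 ± 0.11, Snhg8 (a host gene of small nucleolar RNA) by 0.42 ± 0.10, and the zinc finger gene Zscan26 by 0.44 ± 0.12. Mbd1, which binds methylated DNA, differed by 0.28 ± 0.07, but 4 other probe sets of it differed by -0.05 to 0.04. Looked up after values were seen, the nuclear RNA Neat1 was at 10.24, 10.47 and 10.54 against 10.84, 10.69 and 10.92 (0.40 ± 0.12), the splicing factor Srsf5 differed by 0.45 ± 0.14, Nktr by 0.32 ± 0.09 and Hnrnph1 by 0.26 ± 0.08. The pools of these 4 did not overlap. In wild-type mice they differed by -0.22, 0.04, -0.13 and -0.05.

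Genes for handling quercetin itself differed little. Of 14 measured flavonoid conjugation genes 5 were above 0 and 9 below, the median was -0.06, none had an unadjusted p under 0.05, and 3 did not overlap (21.4%, against 9.0% of all genes), all lower: Sult1b1, Ugdh and Ugp2. Sult1b1, a sulphotransferase of phenols, was at 10.29, 10.38 and 10.26 against 10.11, 10 and 10.24, a difference of -0.19 ± 0.09. Ugdh and Ugp2, which make the glucuronic acid donor, differed by -0.16 and -0.14. Ugt2b34, a glucuronosyltransferase, differed by -0.10 with overlap (95% interval -0.30 to 0.10).

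Efflux pumps went both ways. Besides Abcc1, Abcc6 did not overlap and was lower: 5.80, 5.74 and 6.17 against 5.41, 5.64 and 5.42, a difference of -0.41 ± 0.12. Abcg2, the apical pump of flavonoid sulphates and glucuronides, differed by -0.12 (95% interval -0.41 to 0.16). The apical Abcc2 differed by -0.30 ± 0.23, and by -0.09 without quercetin pool 2. The basolateral Abcc3 differed by -0.19, and the P-glycoprotein genes Abcb1a and Abcb1b by 0.09 and 0.01. Of 8 pump genes 3 were above 0 and 5 below.

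Xenobiotic sensors and their targets stayed near their control levels. Cyp1a1, the classic target of the aryl hydrocarbon receptor, was at 6.20, 6.38 and 6.01 on control diet and 6.11, 6.24 and 6.47 on quercetin. The diets overlapped, and the difference of 0.08 ± 0.15 had a 95% interval of -0.25 to 0.40. In wild-type mice it differed by -0.73 ± 0.15 with no overlap, and the difference between the genotypes was 0.80 ± 0.22, at an adjusted p of 0.935 in limma. The receptor gene Ahr differed by 0.13 with overlap and its partner Arnt by 0.25 ± 0.11 without, but by 0.11 without quercetin pool 3, and a second Arnt probe set by -0.06. The list of 11 aryl hydrocarbon receptor genes had a median of -0.01.

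Nqo1, a quinone reductase under NRF2, differed by 0.02 ± 0.13. In the NRF2 list of 22 genes 14 were below 0 and 7 above, with a median of -0.07. Gclm, the modifier subunit of the enzyme that starts glutathione synthesis, was at 9.19, 9.18 and 9.32 against 8.92, 8.88 and 8.85. Every quercetin pool was lower, by -0.35 ± 0.14 on average, and the wild-type difference was -0.31 with overlap. Gss, the glutathione synthetase, was at 7.99, 7.69 and 7.73 against 7.59, 7.61 and 7.65. Its difference was -0.19 without overlap, with control pool 1 well above the other control pools. Gpx2, the glutathione peroxidase of the gut, differed by -0.37 with overlap.

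Cyp3a11, a main drug-oxidising P450 of the gut, was at 12.51, 12.37 and 12.30 against 12.55, 12.47 and 12.32, a difference of 0.05 ± 0.19. Of 23 P450 and receptor genes 16 were below 0, and 2 did not overlap (8.7%, against 9.0% of all genes), both lower. These were Cyp4f14, a fatty acid and leukotriene hydroxylase, at 12, 12.10 and 12.16 against 11.86, 11.85 and 11.96 (-0.20 ± 0.08), and Cyp2d22 (-0.22 ± 0.10). Nr1i2, which encodes the pregnane X receptor, differed by -0.28 ± 0.14 with overlap. Glutathione S-transferases were evenly divided, 10 above and 10 below 0, with Gstm5 at 0.26 (0.14 without control pool 3 and 0.17 without quercetin pool 3) and Mgst3 at -0.21, whereas in wild-type mice 11 of the 20 were lower at an unadjusted p under 0.05 (background 4.37%). For 8 of the 20 the genotypes' differences had an unadjusted interaction p under 0.05 (background 5.22%), and for 0 an adjusted one (limma). Wild-type pools also differed by diet in a score of distal minus proximal gut markers, given with those markers below.

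Sterol synthesis genes had a median difference above 0 that rested on 1 control pool. Hmgcs1, the synthase that makes HMG-CoA for the mevalonate pathway, was at 11.00, 10.80 and 9.29 on control diet and 11.03, 11.13 and 11.16 on quercetin. Control pools 1 and 2 lay just under the quercetin pools and control pool 3 far below. The difference was 0.74 ± 0.32 (95% interval 0.05 to 1.44), and 0.21 without control pool 3. Its 3 other probe sets differed by 0.67 to 0.68, and by 0.08 to 0.14 without that pool.

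The same pool was low for later steps. Idi1, the isopentenyl diphosphate isomerase, was at 8.52, 8.29 and 6.81 against 8.54, 8.60 and 8.35, and Fdft1, the squalene synthase, at 8.78, 8.61 and 6.90 against 8.61, 8.80 and 8.67. Without control pool 3 their differences of 0.62 and 0.60 became 0.09 and 0.00. Cyp51, the lanosterol demethylase, was at 8.42, 8.07 and 5.54 against 7.90, 8.00 and 8.08, a difference of 0.65 that became -0.25. Of 19 measured genes 17 had their lowest value among the 6 POR-null pools in control pool 3, and 16 were higher on quercetin, with a median difference of 0.15. Without that pool the median was -0.11. Leaving out each of the other 5 pools in turn gave 0.12 to 0.30. Srebf2, which encodes the regulator of these genes, differed by 0.09 ± 0.10 on its brighter probe set. On the other it was at 8.14, 8.08 and 7.06 against 7.97, 8.15 and 8.15, a difference of 0.33 ± 0.20 that was -0.02 without control pool 3. Of the fatty acid synthesis genes, Fasn and Elovl6 were low in the same pool. Fasn was at 6.97, 7.10 and 6.48 against 7.16, 7.30 and 7.04 (0.32, or 0.13 without control pool 3), and the elongase Elovl6 differed by 0.31 (0.06 without it). In Mlxipl, the carbohydrate-response factor, control pool 3 was not low, and its pools did not overlap: 8.71, 8.84 and 8.79 against 8.96, 8.96 and 8.90, a difference of 0.16 ± 0.10.

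**Figure D3:**
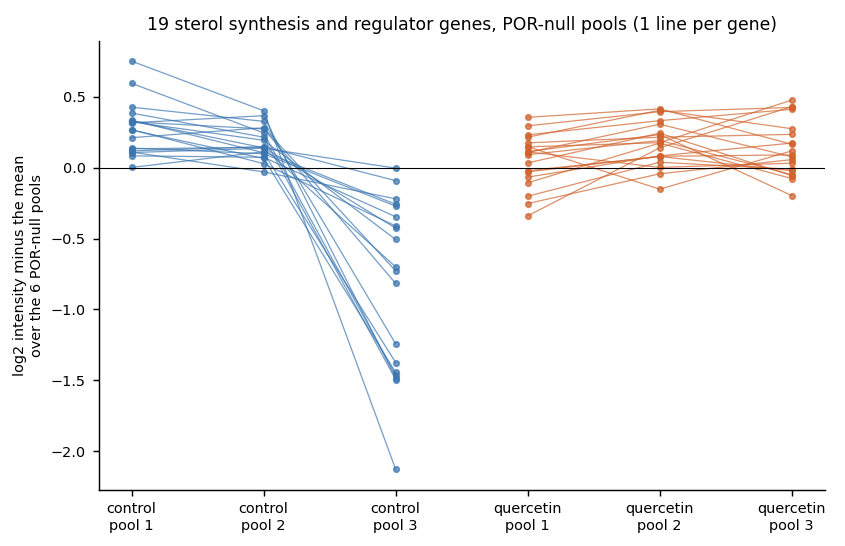
Each line is 1 of 19 measured genes of sterol synthesis and its regulation; the y axis is the gene's log2 intensity minus its mean over the 6 POR-null pools, with the control pools in blue and the quercetin pools in orange. Control pool 3 holds the lowest value of 17 of the 19 genes, and the other 5 pools lie close together.

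Genes of the absorptive cell's energy and fat metabolism were mostly slightly below 0. Of 41 oxidative phosphorylation genes 37 were below 0 and 4 above, with a median of -0.07 that ran from -0.09 to -0.07 with 1 pool left out. Pools did not overlap for 9 of them (22%, against 9.0% of all genes), all lower. Ndufb8, a subunit of complex I, was at 10.55, 10.55 and 10.57 against 10.40, 10.37 and 10.41, a difference of -0.16 ± 0.08 between very close replicates. Cox6c, of cytochrome oxidase, differed by -0.16 and Ndufa9 by -0.15, both without overlap. In wild-type mice all 41 were below 0, with a median of -0.15 and 15 lower at an unadjusted p under 0.05 (background 4.37%).

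Of 29 genes of fatty acid oxidation and PPAR-alpha targets 20 were below 0 and 4 did not overlap (13.8%, against 9.0% of all genes), all lower. Acads, the short-chain acyl-CoA dehydrogenase, was at 8.92, 8.90 and 8.98 against 8.68, 8.74 and 8.77, a difference of -0.20 ± 0.08. Ehhadh, a peroxisomal enzyme of the same process, was at 7.20, 7.30 and 7.36 against 7.11, 7.03 and 7.06 (-0.22 ± 0.09), and Slc25a20, the carnitine carrier, differed by -0.19. On the other side Acadl, the long-chain acyl-CoA dehydrogenase, had an unadjusted p under 0.05 with overlapping pools: 8.51, 8.95 and 8.39 against 9.13, 8.81 and 8.91, a difference of 0.33 ± 0.15, or 0.22 without control pool 3. For fat absorption, Mogat2 and Slc27a4, which rebuild and take up dietary fat, differed by -0.14 and -0.13 without overlap.

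On the brush border, 12 of 14 genes were below 0. Akp3, an intestinal alkaline phosphatase, was at 6.14, 6.14 and 6.14 on control diet and 5.72, 6.01 and 5.93 on quercetin (-0.25 ± 0.10). Vil1, the actin-bundling protein of microvilli, was at 12.27, 12.32 and 12.31 against 12.20, 12.12 and 12.18 (-0.13 ± 0.07), and Mme, a membrane peptidase, differed by -0.27. These 3 of the 14 did not overlap (21.4%, against 9.0% of all genes). Slc16a1, a carrier of lactate and short-chain acids, was at 7.79, 7.48 and 7.76 against 7.37, 7.39 and 7.46 (-0.27 ± 0.11). Slc2a5, the fructose carrier, was at 8.31, 8.80 and 8.95 against 8.41, 8.52 and 8.40 (-0.24 ± 0.15). Its control pool 1 lay below every quercetin pool. Ribosomal protein genes leaned the other way: 25 of 30 were above 0 with a median of 0.08. Rpl6 was at 10.38, 10.40 and 10.18 against 10.61, 10.60 and 10.52 (0.26 ± 0.10), and the wild-type median of this list was 0.24. For 27 proteasome genes the median was -0.04, or -0.12 without control pool 3, which was the lowest of the 6 pools for 16 of them. No gene of these lists passed the test.

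**Figure D4:**
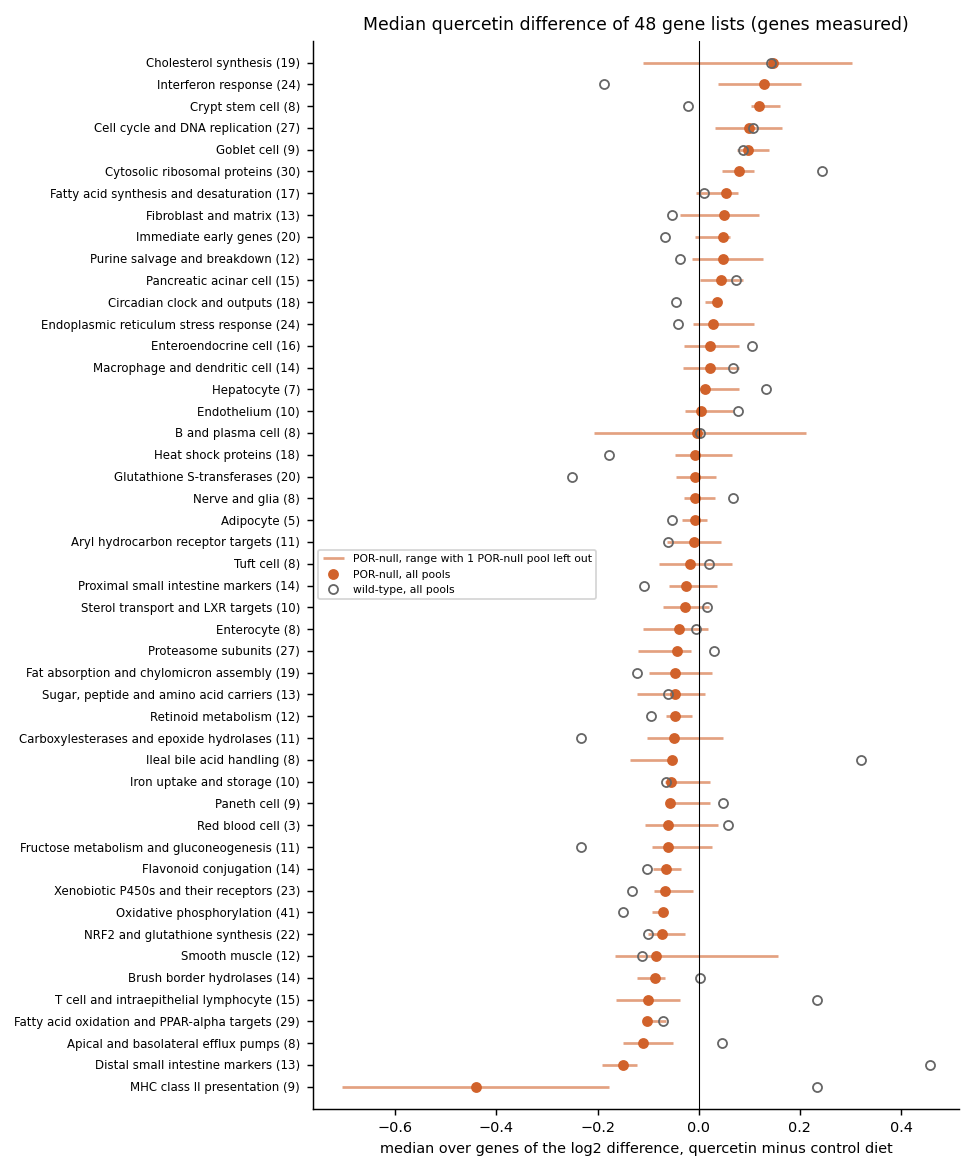
Filled circles are the median log2 difference (quercetin minus control diet) of each of 48 gene lists in POR-null jejunum, lines the range of that median when 1 POR-null pool is left out at a time, and open circles the wild-type median; the number of measured genes is in brackets. MHC class II lies farthest below 0 and cholesterol synthesis farthest above, and both have wide lines.

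Antigen presentation genes had the lowest median of any list, -0.44 over 9 genes, all below 0. H2-Ab1, a chain of the MHC class II molecule, was at 10.26, 10.25 and 9.35 on control diet and 8.62, 9.81 and 9.57 on quercetin. Quercetin pool 1 was far below the others, control pool 3 was low as well, and the diets overlapped. The difference was -0.62 ± 0.27, and -0.26 without quercetin pool 1. H2-Eb1 (-0.48), H2-DMa (-0.44), Cd74 (-0.47) and H2-Aa (-0.54) shared the low pool: for 7 of the 9 genes quercetin pool 1 was the lowest of the 6. Without that pool H2-Eb1 was at -0.20, H2-DMa at -0.26, Cd74 at -0.17 and H2-Aa at -0.18. The median without it was also -0.18, without control pool 3 it was -0.70, and the pools of 0 of the 9 genes were apart. In wild-type mice the median was 0.23 and H2-Ab1 differed by 0.44.

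Interferon-response genes were spread on both sides, 16 of 24 above 0 and 8 below, with a median of 0.13. Bst2, a membrane tether of viruses, was at 5.81, 5.95 and 5.70 against 6.26, 6.05 and 5.97 (0.27 ± 0.11), with no overlap. Helz2, a helicase gene that was not in the list, was at 7.72, 7.74 and 7.64 against 8.17, 8.09 and 7.83 (0.33 ± 0.09). Gbp2, a guanylate-binding protein, went the other way without overlap, at 5.68, 5.72 and 5.60 against 5.27, 5.40 and 5.36 (-0.32 ± 0.11). Oasl1 differed by 0.29, and by 0.10 without quercetin pool 2. As means of the list, each gene centred over the 12 arrays, the control pools were at 0.01, -0.05 and -0.16 and the quercetin pools at 0.11, 0.30 and -0.19, so the quercetin pools spanned the whole range. The wild-type median was -0.19.

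Of 15 markers of T cells and intraepithelial lymphocytes 12 were below 0, 4 of them at an unadjusted p under 0.05 (background 2.09% of genes), and the pools of all 15 overlapped. Itgae, the integrin that holds these cells in the epithelium, was at 7.13, 7.46 and 6.80 against 6.76, 6.84 and 6.86 (-0.31 ± 0.12, or -0.14 without control pool 2), and Cd3g, of the T cell receptor complex, differed by -0.28 (-0.17 without control pool 2). The other 2 were Nkg7 (-0.22), a granule protein of killer cells, and Cd160 (-0.18), an activating receptor whose 2 further probe sets differed by 0.06 and 0.03. The summed linear level of the 15 markers was 4253 to 5192 in control pools and 3903 to 4842 in quercetin pools. Fewer cells of a type and less RNA per cell cannot be told apart in such pools. Wild-type mice had all 15 above 0, with a median of 0.23, and 7 of the 15 had an unadjusted interaction p under 0.05 (background 5.22%; 0 adjusted, limma). The myeloid gene Fcer1g differed by -0.24 with overlap, and the complement genes C1qa and C1qb by 0.23 and 0.21.

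**Figure D5:**
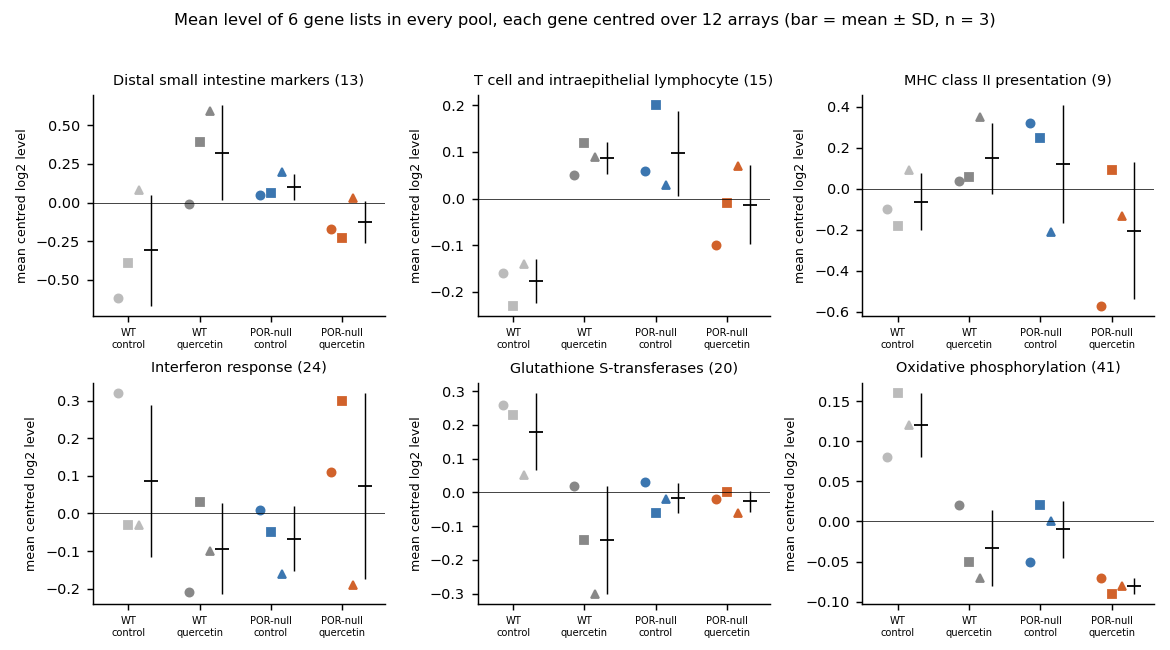
Mean centred log2 level of 6 gene lists in every pool, each gene centred over the 12 arrays; circle, square and triangle are pools 1, 2 and 3, bars are the mean ± SD of 3 pools, and wild-type (WT) pools are in greys. In POR-null mice the oxidative phosphorylation list has its 3 quercetin pools (-0.07 to -0.09) below the control pools (-0.05 to 0.02), and the distal markers do so too (-0.23 to 0.03 below 0.05 to 0.20), while the other 4 lists overlap.

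Goblet and crypt markers were mostly above 0, while Paneth and tuft cell markers were not (4 of 9 and 2 of 8 above 0). Among Paneth markers, Itln1, an intelectin also made by goblet cells, was at 9.84, 9.45 and 8.98 on control diet and 10.37, 10.05 and 9.83 on quercetin. Its lowest quercetin pool lay just under its highest control pool, and the difference was 0.66 ± 0.23 (95% interval 0.17 to 1.15), or 0.44 without control pool 3. Pla2g2a, a secreted phospholipase of Paneth cells, was at 6.30, 6.05 and 5.90 against 6.53, 6.38 and 6.39 (0.35 ± 0.11) and did not overlap. Mmp7, which cleaves pro-defensins, differed by 0.40 (0.22 without control pool 3). The Paneth list as a whole had 4 of 9 genes above 0 and a median of -0.06, and its summed level was 9831 to 11634 in control and 9230 to 10868 in quercetin pools.

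Defa31, an alpha-defensin of Paneth cells, was at 5.99, 5.63 and 5.88 against 6.02, 10.35 and 5.85. A single quercetin pool made the difference of 1.57 ± 1.48, and 1 wild-type quercetin pool was at 12.99 while the other 5 wild-type pools were at 5.62 to 5.89. Alpha-defensin genes are near-identical copies, and this probe set can bind several of them. Agr2, a folding enzyme of goblet cells, differed by 0.35, and 8 of 9 goblet markers were above 0 (median 0.10). All 8 crypt stem cell markers were above 0, with a median of 0.12, led by Slc12a2 (0.51, or 0.24 without control pool 3), whose 2 dimmer probe sets differed by 0.09 and 0.05. Of 27 cell cycle genes 22 were above 0 with a median of 0.10, and 0 had an unadjusted p under 0.05.

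Clps is also a marker of pancreatic acinar cells, and 0 of the 15 measured markers of that list passed the test. Pnliprp1, a lipase-related protein, was dim at 4.59, 4.66 and 4.65 against 5, 5.02 and 4.83 (0.32 ± 0.12), without overlap, and Pnliprp2 differed by 0.46 with overlap (0.25 without quercetin pool 1). Of the 15 markers 11 were above 0 with a median of 0.04. Their list means were -0.04, -0.04 and -0.07 in the control pools and 0.05, 0.07 and 0.06 in the quercetin pools, with no overlap. Clps itself, Pnliprp1 and Pnliprp2 are part of these means. The summed linear level ran from 5548 to 6327 in control and 5943 to 6274 in quercetin pools, mostly Zg16, which goblet cells also make. Their part in the Clps result was not tested.

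Markers of the distal small intestine were mostly below 0, 11 of 13, with a median of -0.15 and a range of -0.19 to -0.12 with 1 pool left out. Fabp6, the ileal bile acid binding protein, was at 8.73, 8.30 and 10.33 on control diet and 6.69, 7.30 and 9.57 on quercetin. Pool 3 of each diet was high, the groups overlapped, and the difference of -1.27 ± 1.10 had a 95% interval of -3.62 to 1.09, and was -0.66 without control pool 3 and -0.69 without quercetin pool 1. In wild-type mice Fabp6 differed by 3.17 ± 1.10. Cubn, the vitamin B12 receptor of the ileum, was at 9.94, 10.15 and 10.89 against 9.77, 9.73 and 10.21 (-0.42 ± 0.19), and -0.50 ± 0.15 without overlap on a second probe set. Without control pool 3 these were -0.14 and -0.30. Clec2h was at 12.31, 12.33 and 12.15 against 12.20, 12.11 and 11.84, a difference of -0.21 with overlap, with quercetin pool 3 the lowest. Slc51a, a bile acid exporter, differed by -0.19. The score of distal minus proximal markers was 0.03, 0.06 and 0.14 in control pools and -0.20, -0.23 and 0.11 in quercetin pools. As list means, the control pools were at 0.05, 0.06 and 0.20 and the quercetin pools at -0.17, -0.23 and 0.03, which did not overlap, although 0 single genes of the list were without overlap. Smooth muscle marker means were 0.49, -0.22 and -0.17 against 0.16, -0.18 and -0.09. In wild-type mice the distal minus proximal score was -0.74, -0.62 and 0.07 on control diet and -0.09, 0.56 and 0.91 on quercetin. The wild-type median of the distal list was 0.46. So the wild-type pools set beside POR-null ones differed in these markers as well as in diet. With the segment score or the smooth muscle score as a covariate (limma), 0 probe sets passed the test for the diet in POR-null mice. The interaction had 1 call with the segment score and 0 with the smooth muscle score. For wild-type differences no such fit is given. Whether these markers were a cause of other results was not tested.

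The quercetin differences of POR-null and wild-type mice correlated weakly across genes. Over 12393 genes they correlated at r = 0.09 and rho = 0.10, a description over genes of pools that share no array. POR-null differences had an SD of 0.114 over genes, beside a median SD of 0.104 between pools of a group. With such spread a weak correlation cannot show whether the effects were alike or not. Of the 1118 genes without overlap in POR-null mice, 87 also had none in wild-type mice in the same direction and 60 in the opposite one, where 1448 genes had none (11.7%). Differences were above 0 for 7039 genes in wild-type mice and 6056 in POR-null mice. In wild-type jejunum 3 probe sets passed the test (0.0133%), with 1972 at an unadjusted p under 0.05 (8.72%). Without 1 wild-type pool at a time that count of calls ran from 0, without quercetin pool 2 or 3, to 23, without quercetin pool 1. It was 11, 1 and 10 without control pools 1, 2 and 3.

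None of those 3 genes passed the test of interaction. In POR-null mice Gm9222 and Ckb went the same way as in wild-type mice, and Osr2 did not. Gm9222 was at 5.34, 5.33 and 5.56 on control diet and 6.14, 5.78 and 6.20 on quercetin. The pools did not overlap, and the difference of 0.63 ± 0.12 (adjusted p 0.967 in limma) stood beside 0.95 ± 0.12 in wild-type mice (adjusted p 0.0116). Its probe set is of a type that can bind several transcripts. Ckb, the brain-type creatine kinase, was at 9.20, 9.19 and 9.16 against 8.76, 8.93 and 8.91, a difference of -0.32 ± 0.12 without overlap, beside -0.98 ± 0.12 in wild-type mice. Osr2, a transcription factor gene, was at 7.67, 7.86 and 7.46 against 7.73, 7.49 and 7.39, a difference of -0.13 ± 0.11, beside 0.76 ± 0.11 in wild-type mice.

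No probe set passed the test of whether the diet's effect differed between the genotypes (0 adjusted, or 0%, in limma, and 1141 at an unadjusted p under 0.05, or 5.04%). Its smallest adjusted p was 0.651, for Osr2, at -0.88 ± 0.15. Ada, an enzyme that breaks down adenosine, differed by 0.26 in POR-null mice (0.10 without control pool 1) and -1.04 in wild-type mice. The interaction of 1.30 ± 0.26 had an adjusted p of 0.718 in limma, and without wild-type control pool 1 it was 1.55 at an adjusted p of 0.0212. Ada was itself in the list of proximal gut markers. Wild-type pools differed by diet in the distal minus proximal score given above, and its part in the Ada result was not tested. Car12, a carbonic anhydrase looked up after values were seen, was at 5.07, 5.13 and 5.13 against 5.42, 5.42 and 5.75 in POR-null mice (0.42 ± 0.13) and differed by 0.49 ± 0.13 in wild-type mice, without overlap in either.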

How the data were processed

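RNA from pools of 3 mice was hybridised to 12 Affymetrix 430A arrays of 1 colour, 3 for each genotype and diet. The authors deposited log2 intensities per probe set. MAS5 and RMA are both named, without role or version, per the submitters' processing notes, and it is unknown which gave these values. Medians were alike (5.94 to 6.01), so nothing was normalised again. No scan date or batch was given in the sources used here. The number of arrays limits the precision.

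After 64 control probe sets were left out, 22626 were fitted with a mean per group over all 12 arrays (R 4.3.3 with limma 3.58.1; residual degrees of freedom 8, prior 6.75). Two-sided p were adjusted by Benjamini-Hochberg over all of them and called under 0.05. SE are of this model. For genes, the probe set with 1 symbol and the highest mean was used, leaving out cross-hybridising types where another existed (20380 probe sets had 1 symbol in the platform table, 691 several and 1555 none; 20351 matched RefSeq and 0 symbols were updated; 12393 genes). Pools that share a replicate number were not taken as pairs. An exact test of 3 pools against 3 cannot go under p = 0.1. P-values measure the spread between pools, which the labels do not tie to cages or days.

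Members and the 48 gene lists (679 of 799 genes measured) were chosen with earlier results of these data known. Named genes were the 10 with the smallest p in each direction, the 4 largest differences without overlap in each direction, up to 3 members of each list that held an unadjusted p under 0.05, and 14 genes always looked up (11 measured; the other 3 are not analysed here). Unnamed models were passed over. Other genes are said to be named after their values were seen, or are members of a list given as examples of its range. List medians were not tested. Motifs were searched in RefSeq promoter windows of GRCm38.p6. The code was tested on simulated data. Figures used Python 3.11.15 and matplotlib 3.10.9. Alternatives were other scalings, filters, variance models, covariates, a replicate block and leaving out pools.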

Additional observations from a re-analysis of the deposited data

Results flagged for a closer look

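In 5 named genes every quercetin pool lay on one side of the control pools in POR-null mice and on the other side in wild-type mice. The POR-null minus wild-type difference was 0.57 for Helz2 (0.33 against -0.24), 0.75 for Bst2 (0.27 against -0.48), -0.57 for Rgs2 (-0.39 against 0.18), -0.29 for Cyp4f14 (-0.20 against 0.09) and -0.23 for Vil1 (-0.13 against 0.10). The interaction was tested with limma and not passed: adjusted p was 0.755 for Helz2, Bst2 and Rgs2 and 0.956 for Cyp4f14 and Vil1. These genes were picked from the 101 named, and 60 of 12393 genes showed such opposite directions. Groups of 3 pools are too small for a check of single outlying pools.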

How the results depend on the processing

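The count of POR-null calls was 0 in all 18 alternatives run (limma), with smallest adjusted p from 0.0646 (G6pc, only the 6 POR-null arrays) upward. Same-numbered pools did not deviate together (r of 0.03, -0.09 and 0.16 for numbers 1, 2 and 3). The replicate block gave 0 POR-null calls (885 at an unadjusted p under 0.05), 0 interaction calls and 8 wild-type calls in place of 3. The mean of a gene's probe sets gave 5 wild-type calls, and leaving out 1 wild-type pool 0 to 23. A covariate for the segment score gave 1 interaction call, a probe set of Sdc4 at -3.31 ± 0.42. Another Sdc4 probe set had an interaction of 0.24 ± 0.20 in the main fit, so the gene's probe sets disagreed. Leaving out 1 pool gave 0 to 2 interaction calls. The 2 were Ada, a proximal gut marker, and the called Sdc4 probe set, without wild-type control pool 1. Probe sets without overlap numbered 1105 when only those at or above the median level were kept. That filter also kept fewer probe sets, so this count cannot be set beside the 2049 (9.06%) of all 22626. Of 1600 recomputed values of named genes, 10 changed sign, in 6 genes. With 1 pool left out Fdft1 ran from 0.00 to 0.94, Slc6a20a from -0.21 to 0.07, Cyp1a1 from -0.02 to 0.17, Nqo1 from -0.11 to 0.10 and Abcg2 from -0.30 to 0.05. With the segment covariate Cyp3a11 was -0.09 and Nqo1 -0.03, and Abcg2 was 0.00 without both pools numbered 1. Of 576 recomputed list medians 23 moved by more than the spread between pools. The cause was not tested. With 3 pools a group, a typical SD of 0.104 and 22626 tests, small differences could not be told from the spread.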

Other observations

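Some genes outside the lists differed by over 1.5-fold in POR-null mice with overlapping pools, and are given as values seen after the fact. Slc46a1, the proton-coupled folate carrier, was at 6.56, 7.52 and 8.15 on control diet and at 6.76, 6.68 and 6.53 on quercetin (-0.75 ± 0.34, SE), a difference of -0.38 without control pool 3 and -1.18 without control pool 1. Its control pools were spread widely while its quercetin pools lay together, and in wild-type mice it differed by -0.997 ± 0.342. Ubd, a ubiquitin-like modifier gene, was at 9.35, 9.46 and 7.61 against 7.06, 8.62 and 8.08 (-0.89 ± 0.45), or -0.46 without quercetin pool 1 and -1.49 without control pool 3. The chemokine gene Ccl20 differed by 0.63 ± 0.41, and by 0.26 without quercetin pool 3. Nmnat1, of NAD synthesis, differed by 0.61 ± 0.29, and by 0.33 without control pool 3. Saa1, an acute-phase gene, differed by -0.60 ± 0.71, and by -0.06 without quercetin pool 1. These values without a pool were added after the data were seen.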
